A study of Homo sapiens with 9 samples.

Results

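Integrins and the proteins that assemble at focal adhesions were described here across MDA-MB-231 cells given Qmimic, Dmimic or AllStar. The list held 38 genes: 20 integrin subunits and 18 genes for adaptors, scaffolds and kinases of the adhesion site. Each gene was read from the probe set that was brightest on average over the 9 arrays, among those annotated to its symbol alone, and 37 of the 38 genes had one, with 120 probe sets between them, out of 19775 genes represented on the array. ITGB6 was not measured, since its 4 probe sets also name another gene.

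MDA-MB-231 is a human breast cancer cell line with a mesenchymal, triple-negative phenotype, and all 9 samples came from this 1 line. There were 3 wells each of cells transfected with Qmimic, cells transfected with Dmimic and cells transfected with AllStar, a negative control RNA, every RNA being used at 10 nM. Total RNA was taken after 48 h and hybridised to 1 Affymetrix HG-U133 Plus 2.0 array per well, and the titles call the wells biological replicates. The title of the series mentions miR-34a, a microRNA, while the labels used here state neither the sequence of the mimics nor the meaning of Q and D.

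Integrins are heterodimers of an alpha and a beta subunit that span the plasma membrane and bind matrix proteins such as collagen, laminin and fibronectin. Talin and kindlin bind the beta tails and switch the receptor on, vinculin and the complex of ILK, PINCH and parvin tie it to actin, and the kinases FAK and SRC phosphorylate docking proteins such as paxillin, p130Cas and NEDD9. In breast cancer cells this machinery carries adhesion, spreading and migration.

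The mature human miR-34a-5p is shown because it is the microRNA the title names, not because the deposited data hold it. RefSeq places it at chr1:9151735-9151756 on the minus strand of GRCh38.p14. The capitals mark the seed, bases 2 to 8.
hsa-miR-34a-5p: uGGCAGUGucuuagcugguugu

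AllStar replicate 3 was unlike the other 8 arrays, so the differences are given with all 9 arrays and again without it. Across probe sets its correlation with the other arrays was 0.974 to 0.981, against 0.993 to 0.998 among the other 8, and the interquartile range of its log2 values was 2.99, against 3.41 to 3.53 on the others. All 7 markers fixed for MDA-MB-231-type cells, among them VIM, CD44 and EGFR, had mean log2 values of 10.7 to 13.7. Of the luminal markers, CDH1, FOXA1 and PGR had group means of 3.55 to 4.27 on the log2 scale, whereas ESR1, EPCAM and GATA3 had means over the 9 arrays of 6.90, 7.95 and 8.35, and KRT19 of 12.1. The 8 measured leukocyte markers had mean log2 values of 3.82 to 5.99 over the 9 arrays.

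With all 9 arrays, 0 of the 37 members passed the test for either mimic. A gene was called when its adjusted p in limma was under 0.05, after Benjamini-Hochberg adjustment over all 54613 probe sets, and its change was at least 1.5-fold. In the same fit 0% of all genes were called for Qmimic against AllStar and 0.0101% for Dmimic against AllStar. The lowest adjusted p of a member was 0.189 for Qmimic and 0.139 for Dmimic. At an unadjusted p under 0.05, 8 members passed for Qmimic, 7 of them higher than AllStar, and 11 for Dmimic, 8 of them higher. Those counts are 21.6% and 29.7% of the members, against 19.7% and 17.3% of all genes.

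When AllStar replicate 3 was left out, NEDD9 rose 1.83-fold with Dmimic and was the only one of the 37 members called in any comparison. In that fit 0 members were called for Qmimic against AllStar, where 0.693% of all genes were called, and 1 for Dmimic against AllStar, where 1.27% of all genes were called. The lowest adjusted p for Qmimic, that of ITGA2, was 0.0642. At an unadjusted p under 0.05, 7 members passed for Qmimic and 11 for Dmimic, or 18.9% and 29.7% of the members, against 20.9% and 21.3% of all genes.

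Taking both mimics together against AllStar added no member. With all 9 arrays, 0 members were called, against 0.131% of all genes, and 13 had an unadjusted p under 0.05, which is 35.1% of the members against 24.1% of all genes. In the fit of 8 arrays, 0 members were called, against 1.04% of all genes, and 9 had an unadjusted p under 0.05, which is 24.3% of the members against 23% of all genes. The Qmimic and Dmimic comparisons share their AllStar arrays, so a value common to both is not independent evidence.

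The differences of the whole list were small. The median member difference with all 9 arrays was 0.0036 on the log2 scale for Qmimic minus AllStar and 0.05 for Dmimic minus AllStar, and the medians over all genes were -0.02 and -0.01. The member medians without AllStar replicate 3 were 0.05 and 0.06, and the medians over all genes -0.01 and 0.01. With all 9 arrays the 95% interval of the difference lay wholly within 1.5-fold of no change for 30 of the 37 members with Qmimic (81.1%, against 71.6% of all genes) and for 27 with Dmimic (73%, against 74.2%). Without that array the counts were 34 with Qmimic (91.9%, against 93.4% of all genes) and 32 with Dmimic (86.5%, against 92.6%). In the array comparison with all 9 arrays, the Qmimic arrays all lay above the AllStar arrays for 13 members and all below for 1, which is 35.1% and 2.7% of the members against 19.2% and 11% of all genes. For Dmimic the counts were 10 above and 5 below, 27% and 13.5% of the members against 17.1% and 7.13% of all genes.

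**Figure D1:**
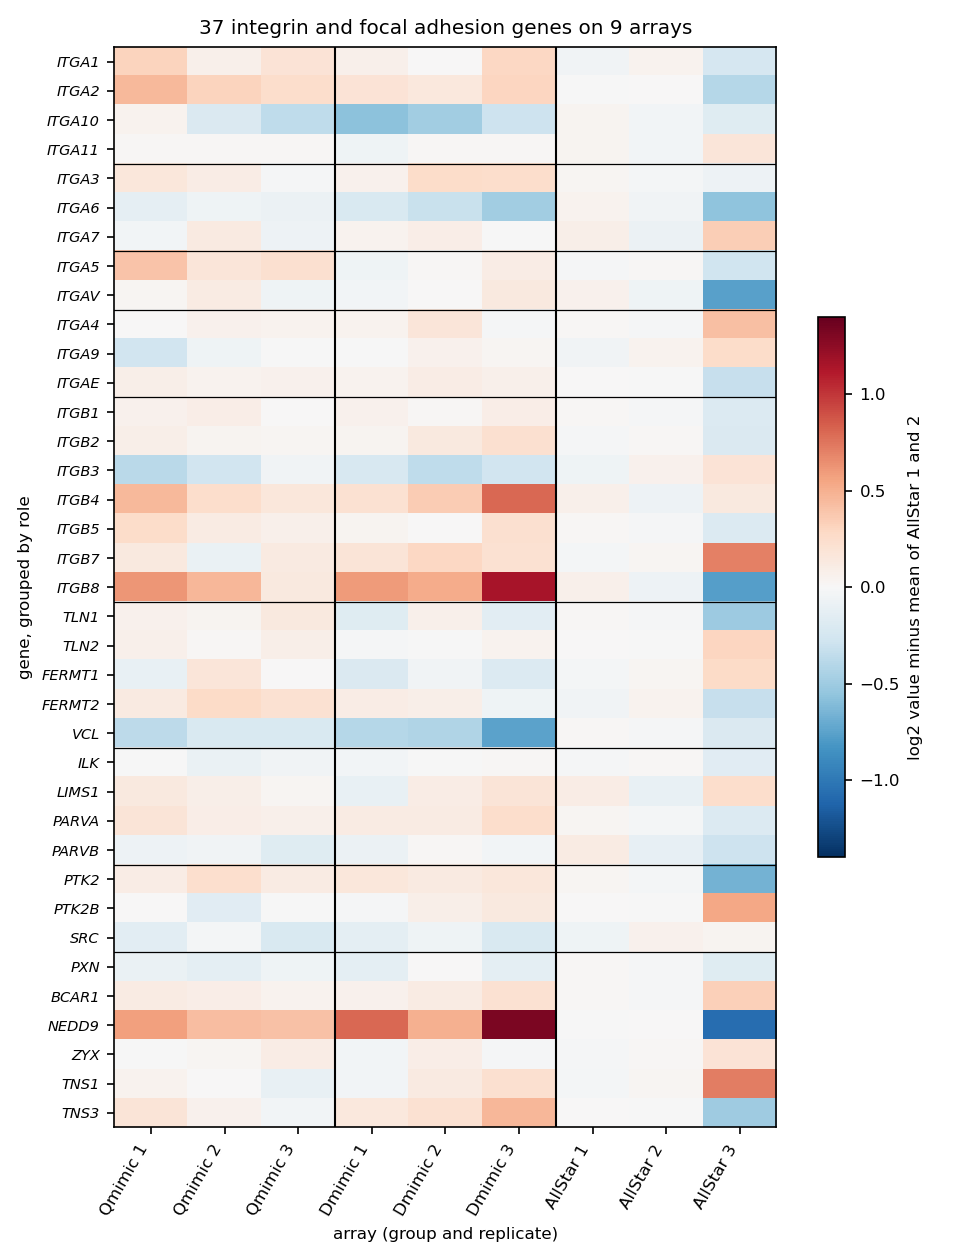
Log2 value of each of the 37 members (rows, grouped by role) on each of the 9 arrays (columns), minus the mean of AllStar replicates 1 and 2. The rows with the strongest colour in the Dmimic columns are NEDD9 and ITGB8 (higher) and VCL (lower), and AllStar replicate 3 is far from the other AllStar arrays in many rows.

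NEDD9, a docking protein of the p130Cas family that is phosphorylated by FAK and SRC, had the largest difference of the list. Its log2 values were 7.82, 7.68 and 7.66 with Qmimic, 8.05, 7.74 and 8.57 with Dmimic, and 7.25, 7.25 and 6.19 with AllStar. All 6 mimic arrays lay above all 3 AllStar arrays, Dmimic replicate 3 was the highest and AllStar replicate 3 the lowest. With all 9 arrays NEDD9 averaged 8.12 ± 0.42 with Dmimic and 6.89 ± 0.61 with AllStar (SD, n = 3 each), a difference of 1.23 on the log2 scale (SE 0.28, 2.34-fold, limma adjusted p = 0.139). Leaving out AllStar replicate 3 gave a difference of 0.87 (SE 0.18, 1.83-fold, limma adjusted p = 0.0398), which passed the test. For Qmimic the difference was 0.83 (SE 0.28, limma adjusted p = 0.243) with all 9 arrays and 0.47 (SE 0.18, limma adjusted p = 0.205) without that array. An exact two-sided permutation test of both mimics against AllStar with all 9 arrays gave p = 0.0119, the smallest that 6 arrays against 3 allow. The same value was not particular to NEDD9: among the integrins, ITGA2, ITGAE and ITGB8 reached it in that test. Of the other members, PARVA and PTK2 also reached it. The share of all genes that reached it is not given here. For NEDD9 the exact permutation test of Dmimic alone gave p = 0.1 with all 9 arrays, again the smallest possible, and p = 0.2 without AllStar replicate 3.

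The NEDD9 call without AllStar replicate 3 was lost under several single removals. The limma adjusted p was 0.234 when AllStar replicate 1 was left out as well, 0.238 without AllStar replicate 2, 0.0627 without Dmimic replicate 1, and 0.057, 0.0756 and 0.0637 without Qmimic replicate 1, 2 and 3, the log2 difference being 0.87 to 0.91. It remained called without Dmimic replicate 2 (1.06, limma adjusted p = 0.0105) and without Dmimic replicate 3 (0.65, limma adjusted p = 0.024). The call belonged to 1 of the 5 NEDD9 probe sets. The next brightest had log2 values of 7.25, 7.11 and 7.11 with Qmimic, 7.40, 7.30 and 7.79 with Dmimic, and 7.10, 7.11 and 6.59 with AllStar, so all 3 Dmimic arrays again lay above the AllStar arrays. Its difference for Dmimic without AllStar replicate 3 was 0.40 on the log2 scale (limma adjusted p = 0.12).

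RefSeq lists 3 starts for NEDD9 on the minus strand of chromosome 6. The 250 bases upstream of the outermost start and of the innermost are shown because NEDD9 was the member called. They are chr6:11382349-11382598 and chr6:11232669-11232918 of GRCh38.p14, printed 5′ to 3′ on the gene's strand. Capitals mark the GC box GGGCGG, a letter pattern known as a binding site of SP-family factors, on either strand.
NEDD9 outermost start: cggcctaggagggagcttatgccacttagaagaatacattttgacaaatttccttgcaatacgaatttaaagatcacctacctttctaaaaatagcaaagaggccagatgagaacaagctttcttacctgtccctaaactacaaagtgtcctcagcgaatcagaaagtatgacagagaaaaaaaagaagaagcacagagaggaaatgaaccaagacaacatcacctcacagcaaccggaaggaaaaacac
NEDD9 innermost start: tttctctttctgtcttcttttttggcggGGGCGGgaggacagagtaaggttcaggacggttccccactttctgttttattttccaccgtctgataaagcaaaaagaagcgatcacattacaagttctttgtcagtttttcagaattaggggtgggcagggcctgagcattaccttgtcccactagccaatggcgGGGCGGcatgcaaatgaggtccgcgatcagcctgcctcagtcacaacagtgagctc

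The innermost window held the GC box at 2 places and the outermost at none, and the array does not tell which start was used. GGGCGG occurred in 24 of 49 windows, from 18 of the 27 members that had a window, and in 42.6% of all 35116 windows of this length. The match is a description of letters only.

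Of the other docking and scaffold proteins, TNS3, a tensin that links beta tails to actin, had log2 values of 9.91, 9.79 and 9.70 with Qmimic, 9.88, 9.94 and 10.20 with Dmimic, and 9.73, 9.73 and 9.24 with AllStar. Its Dmimic arrays were all higher than the AllStar arrays, by 0.44 on the log2 scale (limma adjusted p = 0.276), or by 0.27 without AllStar replicate 3 (limma adjusted p = 0.193). PXN (paxillin), BCAR1 (p130Cas), ZYX (zyxin) and TNS1 had differences between -0.25 and 0.02 on the log2 scale with all 9 arrays, for both mimics. In the fit of 8 arrays these differences ran from -0.09 to 0.13. A second PXN probe set was lower on every mimic array than on AllStar replicates 1 and 2. It averaged 7.59 with Qmimic and 7.66 with Dmimic, against 7.98 over those AllStar arrays, while AllStar replicate 3 read 7.32. The ZYX value came from a probe set of a kind that can also bind related transcripts.

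**Figure D2:**
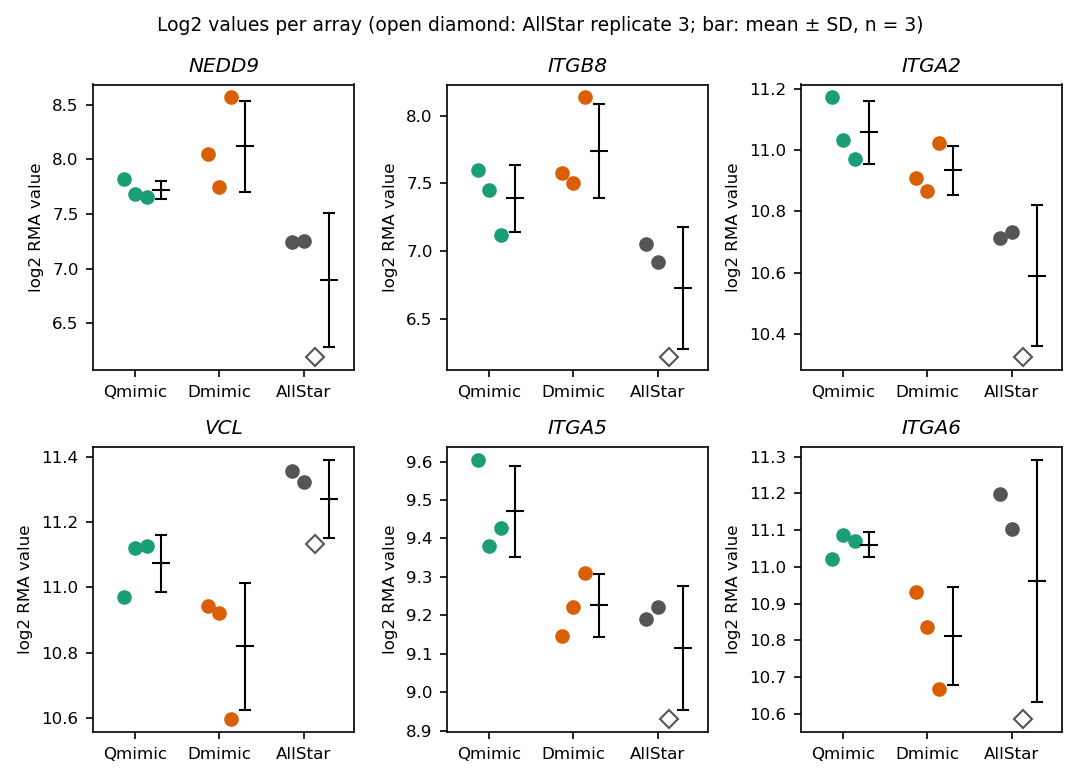
Log2 values of 6 members on each array, in the order Qmimic, Dmimic, AllStar, with the group mean and SD (n = 3) beside the points. The open diamond is AllStar replicate 3, which is the lowest AllStar array in all 6 panels and by 1.06 log2 units for NEDD9.

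Among the integrin beta subunits, ITGB8 differed most. It pairs with the alpha V subunit and is known for activating latent TGF-beta. Its log2 values were 7.60, 7.45 and 7.12 with Qmimic, 7.58, 7.50 and 8.13 with Dmimic, and 7.05, 6.92 and 6.22 with AllStar. Every mimic array lay above every AllStar array, though the lowest Qmimic array exceeded AllStar replicate 1 by little. The Dmimic difference was 1.01 on the log2 scale (SE 0.24, 2.01-fold, limma adjusted p = 0.149) with all 9 arrays and 0.75 (SE 0.18, 1.69-fold, limma adjusted p = 0.0622) without AllStar replicate 3. It passed the test when Dmimic replicate 2 was also left out (0.87, limma adjusted p = 0.0374). The Qmimic difference was 0.66 (limma adjusted p = 0.254) and, without AllStar replicate 3, 0.40 (limma adjusted p = 0.278).

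The upstream window of ITGB8, chr7:20330650-20330899 on the plus strand of GRCh38.p14, is shown as that of the integrin with the largest difference. It held the GC box at 2 places, both as its reverse complement CCGCCC, in capitals.
ITGB8: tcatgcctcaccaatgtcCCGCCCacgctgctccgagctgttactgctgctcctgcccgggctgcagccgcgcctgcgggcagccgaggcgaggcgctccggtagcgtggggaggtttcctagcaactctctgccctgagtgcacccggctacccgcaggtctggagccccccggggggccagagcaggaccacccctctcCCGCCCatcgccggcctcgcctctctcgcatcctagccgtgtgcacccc

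The other beta subunits gave smaller differences, and none was called. ITGB4, the laminin receptor subunit of hemidesmosomes, had log2 values of 9.17, 8.95 and 8.87 with Qmimic, 8.92, 9.07 and 9.51 with Dmimic, and 8.78, 8.64 and 8.85 with AllStar. All mimic arrays exceeded the AllStar arrays, and the Dmimic difference was 0.41 (limma adjusted p = 0.309) with all 9 arrays and 0.46 (limma adjusted p = 0.15) without AllStar replicate 3. ITGB3, the beta subunit of the vitronectin receptor, had log2 values of 6.03, 6.15 and 6.36 with Qmimic, 6.19, 6.06 and 6.15 with Dmimic, and 6.35, 6.48 and 6.61 with AllStar. The Dmimic arrays were all below the AllStar arrays and 1 Qmimic array overlapped them. The ITGB3 difference was -0.30 for Qmimic and -0.35 for Dmimic on the log2 scale (limma adjusted p = 0.261 and 0.25), and -0.23 and -0.28 without AllStar replicate 3. A second ITGB3 probe set of similar brightness differed by 0.12 for Dmimic and 0.0032 for Qmimic without that array, so the direction was not shared.

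ITGB1, the common partner of most alpha subunits, had the highest log2 level of the list, with 12.58, 12.61 and 12.52 with Qmimic, 12.59, 12.53 and 12.61 with Dmimic, and 12.53, 12.51 and 12.33 with AllStar. The mimic arrays overlapped the AllStar arrays, and the differences were 0.11 for Qmimic and 0.12 for Dmimic (limma adjusted p = 0.462 and 0.535). Without AllStar replicate 3 the 95% interval of the ITGB1 difference was -0.09 to 0.19 for Qmimic and -0.09 to 0.20 for Dmimic. The next brightest ITGB1 probe set averaged 11.64 with Qmimic and 11.71 with Dmimic, against 11.73 over AllStar replicates 1 and 2. The third brightest averaged 11.54 and 11.67, against 11.75, so the direction was not shared. In these probe sets AllStar replicate 3 read 10.89 and 10.88. For ITGB2, ITGB5 and ITGB7 the differences ran from -0.18 to 0.21 with all 9 arrays and from 0.05 to 0.23 without that array, and none passed the test.

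The collagen-binding alpha subunits held a member higher with Qmimic and one lower with Dmimic, neither of them called. ITGA2, the alpha subunit of a collagen receptor of epithelial cells and platelets, had log2 values of 11.17, 11.03 and 10.97 with Qmimic, 10.91, 10.87 and 11.02 with Dmimic, and 10.71, 10.73 and 10.32 with AllStar. All 6 mimic arrays exceeded the AllStar arrays. The Qmimic difference was 0.47 on the log2 scale (SE 0.12, 1.39-fold, limma adjusted p = 0.189), and 0.34 (SE 0.08, limma adjusted p = 0.0642) without AllStar replicate 3. A second ITGA2 probe set differed by 0.33 for Qmimic and 0.22 for Dmimic without that array, against 0.34 and 0.21 for the first.

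ITGA10, a collagen receptor subunit known from cartilage, had log2 values of 6.97, 6.71 and 6.56 with Qmimic, 6.34, 6.42 and 6.63 with Dmimic, and 6.95, 6.88 and 6.75 with AllStar. The Dmimic arrays lay below the AllStar arrays and the Qmimic arrays overlapped them. The Dmimic difference was -0.40 (limma adjusted p = 0.25) and, without AllStar replicate 3, -0.45 (limma adjusted p = 0.0795). ITGA1, another collagen receptor subunit, differed by 0.27 for Qmimic and 0.20 for Dmimic with all 9 arrays, and by 0.19 and 0.12 without AllStar replicate 3. For ITGA11, a dim probe set, the differences were -0.04 and -0.07 with all 9 arrays, and 0.02 and -0.0079 without that array.

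Among the laminin-binding alpha subunits, ITGA6, which forms laminin receptors with ITGB1 or ITGB4, had a difference for Qmimic whose sign depended on AllStar replicate 3. Its log2 values were 11.02, 11.09 and 11.07 with Qmimic, 10.93, 10.84 and 10.67 with Dmimic, and 11.20, 11.10 and 10.58 with AllStar. AllStar replicates 1 and 2 were above every mimic array and AllStar replicate 3 below them all. The difference was 0.10 for Qmimic and -0.15 for Dmimic with all 9 arrays, and -0.09 and -0.34 without AllStar replicate 3 (limma adjusted p = 0.616 and 0.065). The second ITGA6 probe set had log2 values of 10.48, 10.49 and 10.46 with Qmimic, 10.55, 10.53 and 10.25 with Dmimic, and 10.95, 10.88 and 10.32 with AllStar. It passed the adjusted p without AllStar replicate 3 at -0.44 for Qmimic and -0.47 for Dmimic (limma adjusted p = 0.0437 and 0.0312), but stayed under 1.5-fold. ITGA3, a laminin receptor subunit of epithelial cells, differed by 0.10 for Qmimic and 0.21 for Dmimic with all 9 arrays, and by 0.08 and 0.19 without AllStar replicate 3. The sign of ITGA7, a laminin receptor subunit of muscle, turned when that array was left out: -0.11 and -0.07 with all 9 arrays, 0.0054 and 0.04 without it.

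The RGD-binding alpha subunits are the receptors for fibronectin and vitronectin. ITGA5, the fibronectin receptor subunit, had log2 values of 9.60, 9.38 and 9.43 with Qmimic, 9.15, 9.22 and 9.31 with Dmimic, and 9.19, 9.22 and 8.93 with AllStar. The Qmimic arrays stood above all others, while the Dmimic arrays overlapped the AllStar arrays. The Qmimic difference was 0.36 (limma adjusted p = 0.218) and, without AllStar replicate 3, 0.26 (limma adjusted p = 0.134), and the Dmimic difference was 0.11 and 0.02. ITGAV, the alpha V subunit, had log2 values of 10.12, 10.21 and 10.03 with Qmimic, 10.05, 10.10 and 10.23 with Dmimic, and 10.15, 10.03 and 9.33 with AllStar. Its difference was 0.28 for each mimic with all 9 arrays (limma adjusted p = 0.406 and 0.504) and 0.03 for each without AllStar replicate 3.

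ITGA4, ITGA9 and ITGAE, whose partners include ITGB1 and ITGB7, had no call. ITGA4, near the bottom of the scale, had a mean log2 value of 3.66 with Qmimic and 3.69 with Dmimic, against 3.77 with AllStar, or 3.62 for AllStar without replicate 3, which read 4.05. Its difference was -0.10 for Qmimic and -0.07 for Dmimic with all 9 arrays, and 0.04 and 0.07 without that array. ITGA9 differed by -0.20 and -0.06 with all 9 arrays, and by -0.11 and 0.03 without AllStar replicate 3. ITGAE arrays were all higher with either mimic, by 0.17 for Qmimic and 0.19 for Dmimic on the log2 scale, and by 0.06 and 0.08 without AllStar replicate 3.

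VCL, which encodes vinculin, the protein that reinforces the link of talin to actin, had the most negative difference of the list for Dmimic in both fits, and for Qmimic in the fit without AllStar replicate 3. Its log2 values were 10.97, 11.12 and 11.13 with Qmimic, 10.94, 10.92 and 10.59 with Dmimic, and 11.36, 11.32 and 11.13 with AllStar. Every mimic array lay below every AllStar array, by less than 0.01 between Qmimic replicate 3 and AllStar replicate 3, and the Dmimic arrays below the Qmimic arrays. The Dmimic difference was -0.45 on the log2 scale (SE 0.12, limma adjusted p = 0.175) with all 9 arrays. Leaving out AllStar replicate 3 made it -0.52 (SE 0.11, limma adjusted p = 0.0365), which passed the adjusted p but, at 1.44-fold lower, not the fold threshold. The Qmimic difference was -0.20 (limma adjusted p = 0.376) and, without that array, -0.27 (limma adjusted p = 0.214). Removing AllStar replicate 1 or 2 as well took the limma adjusted p for Dmimic to 0.234 and 0.215.

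The upstream window of VCL, chr10:73997866-73998115 on the plus strand of GRCh38.p14, is shown as that of the member with the most negative Dmimic difference. Capitals mark the GC box GGGCGG at 3 places and GGAATG, the core of the site of TEAD factors, at 1.
VCL: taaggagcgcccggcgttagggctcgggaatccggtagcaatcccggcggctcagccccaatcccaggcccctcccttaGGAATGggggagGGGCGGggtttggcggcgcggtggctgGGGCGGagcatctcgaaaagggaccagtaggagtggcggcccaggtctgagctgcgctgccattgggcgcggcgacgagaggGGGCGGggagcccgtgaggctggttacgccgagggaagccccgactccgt

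GGAATG, searched on both strands, occurred in 11.9% of all windows and in 7 of the 49 member windows, those of VCL, ITGA5, ITGA10, ITGB1, PXN and TNS1. The AP-1 pattern TGANTCA occurred in 6.57% of all windows and in those of 2 members, BCAR1 and LIMS1. The CArG box, the site of serum response factor, occurred in 1.16% of all windows and, among the members, in that of ITGB6 alone. Matches marked in the printed windows do not overlap.

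TLN1 and TLN2 encode the talins, and FERMT1 and FERMT2 the kindlins. FERMT2 had log2 values of 10.64, 10.78 and 10.73 with Qmimic, 10.62, 10.59 and 10.45 with Dmimic, and 10.47, 10.56 and 10.19 with AllStar. The Qmimic arrays were above all others, by 0.31 over AllStar on the log2 scale (limma adjusted p = 0.251) and by 0.20 without AllStar replicate 3 (limma adjusted p = 0.205). The next brightest FERMT2 probe set averaged 9.40 with Qmimic and 9.42 with Dmimic, against 9.43 over AllStar replicates 1 and 2. The third brightest averaged 9.11 and 8.80, against 8.89, so the Qmimic separation was not shared by every probe set. In these probe sets AllStar replicate 3 read 8.75 and 8.28. FERMT1 differed by -0.24 for Dmimic (limma adjusted p = 0.402), and by -0.15 without AllStar replicate 3. TLN1 differed by 0.24 for Qmimic and 0.09 for Dmimic with all 9 arrays, and by 0.08 and -0.08 without AllStar replicate 3. TLN2 differed by -0.04 and -0.09 with all 9 arrays, and by 0.06 and 0.0072 without that array.

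In the complex of ILK, PINCH (LIMS1) and parvin no member was called, and PINCH could hardly be judged. ILK, the pseudokinase at its core, had log2 values of 11.47, 11.38 and 11.43 with Qmimic, 11.44, 11.47 and 11.49 with Dmimic, and 11.46, 11.49 and 11.31 with AllStar. The groups overlapped, and without AllStar replicate 3 the 95% interval of the difference was -0.19 to 0.09 for Qmimic and -0.15 to 0.13 for Dmimic. PARVA, a parvin, differed by 0.18 for Qmimic and 0.22 for Dmimic (limma adjusted p = 0.336 and 0.354), its mimic arrays all above the AllStar arrays, and by 0.11 and 0.16 without AllStar replicate 3. PARVB, the other parvin, differed by 0.00 and 0.06 with all 9 arrays, and by -0.10 and -0.03 without that array. The LIMS1 value came from a probe set with a mean log2 value of 3.68, since 2 others also name LIMS-family copies, so it says little about the gene.

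PTK2 encodes FAK, the kinase that scaffolds the adhesion site. Its log2 values were 10.67, 10.80 and 10.68 with Qmimic, 10.72, 10.68 and 10.72 with Dmimic, and 10.59, 10.54 and 9.90 with AllStar. All mimic arrays exceeded the AllStar arrays, 2 of which were close to them. The difference was 0.37 for each mimic with all 9 arrays (limma adjusted p = 0.295 for Qmimic and 0.379 for Dmimic) and 0.15 for each without AllStar replicate 3 (limma adjusted p = 0.27 and 0.308). A second PTK2 probe set averaged 9.66 with Qmimic and 9.72 with Dmimic. It averaged 9.69 over AllStar replicates 1 and 2 and read 9.44 on AllStar replicate 3. SRC, the partner kinase of FAK, had log2 values of 7.38, 7.50 and 7.31 with Qmimic, 7.39, 7.46 and 7.31 with Dmimic, and 7.46, 7.58 and 7.56 with AllStar. The SRC difference was -0.14 for Qmimic and -0.15 for Dmimic, and -0.13 and -0.14 without that array, and none passed the test. PTK2B, the FAK relative PYK2, differed by -0.23 and -0.11 with all 9 arrays and by -0.05 and 0.07 without AllStar replicate 3.

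**Figure D3:**
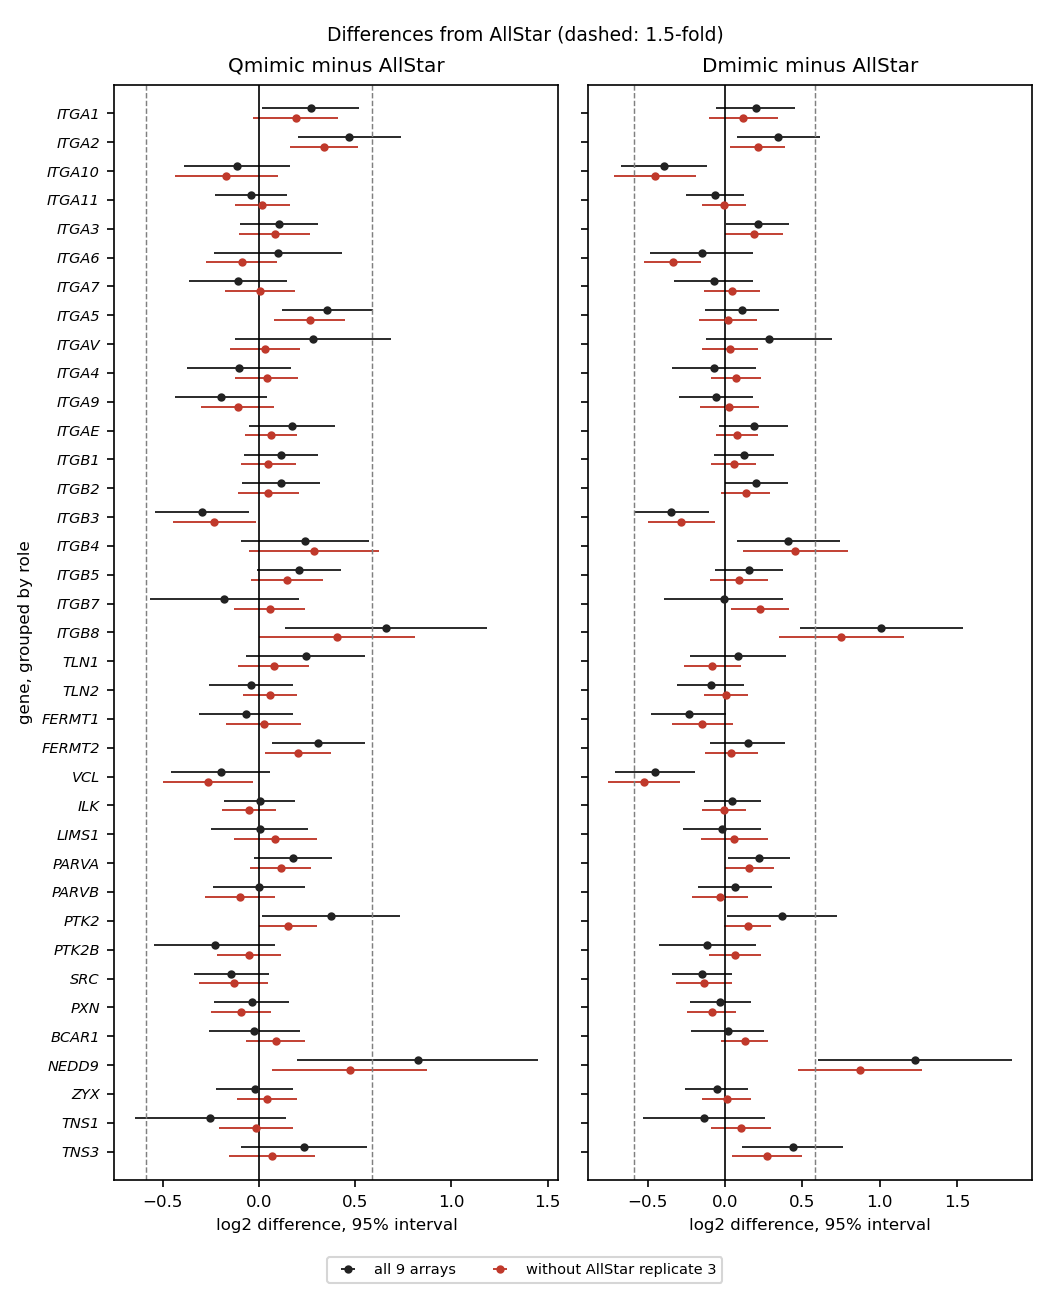
Log2 difference of Qmimic minus AllStar (left) and Dmimic minus AllStar (right) for each member, with its 95% interval, in the fit with all 9 arrays and in the fit without AllStar replicate 3. Dashed lines mark 1.5-fold. Only NEDD9 and ITGB8 pass the dashed line for Dmimic without that array, and the median half-width of the intervals is 0.24 with all 9 arrays and 0.18 without it.

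Set against each other directly, the mimics differed in no member past the threshold. With all 9 arrays 0 members and 0% of all genes were called for Qmimic against Dmimic. At an unadjusted p under 0.05, 2 members passed, ITGA5 and ITGA10, which is 5.41% of the members against 2.54% of all genes. Without AllStar replicate 3, whose removal changes only the estimate of the spread here, 0 members were called, against 0.0961% of all genes, and 8 members had an unadjusted p under 0.05, or 21.6% against 11.7% of all genes. The smallest adjusted p was that of ITGA6, 0.273, with Qmimic higher by 0.25 on the log2 scale (95% interval 0.08 to 0.41). ITGA5 was higher with Qmimic by 0.24 (0.08 to 0.41), VCL by 0.25 (0.05 to 0.46) and ITGA10 by 0.28 (0.04 to 0.52). NEDD9 was lower with Qmimic, at -0.40 (-0.76 to -0.04), and so was ITGB8, at -0.35 (-0.71 to 0.01). For 35 of the 37 members the 95% interval of the Qmimic minus Dmimic difference lay within 1.5-fold of no change, all but NEDD9 and ITGB8, which is 94.6% of the members in either fit, against 91.8% of all genes with all 9 arrays and 98.2% without AllStar replicate 3.

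AllStar replicate 3 departed from the other AllStar arrays in a way that went with level. For the 17 members with a mean log2 value of 9 or more in AllStar replicates 1 and 2, the value of AllStar replicate 3 minus that mean had a median of -0.28 on the log2 scale and was negative for 16, while the median over all genes of that level was -0.35. For the 13 members between 6 and 9 the median was 0.14, against -0.31 for all genes, and the values ran from -1.06 for NEDD9 to 0.70 for ITGB7. Within that range the median over all genes went from 0.25 near a level of 6.25 to -0.44 near 8.25. The medians of members and of all genes there thus also depend on where each lies in the range. For the 7 members under 6 the median was 0.26, against 0.23 for all genes. Its part in the differences above was measured as the fit without it, and the reason for its departure was not tested.

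**Figure D4:**
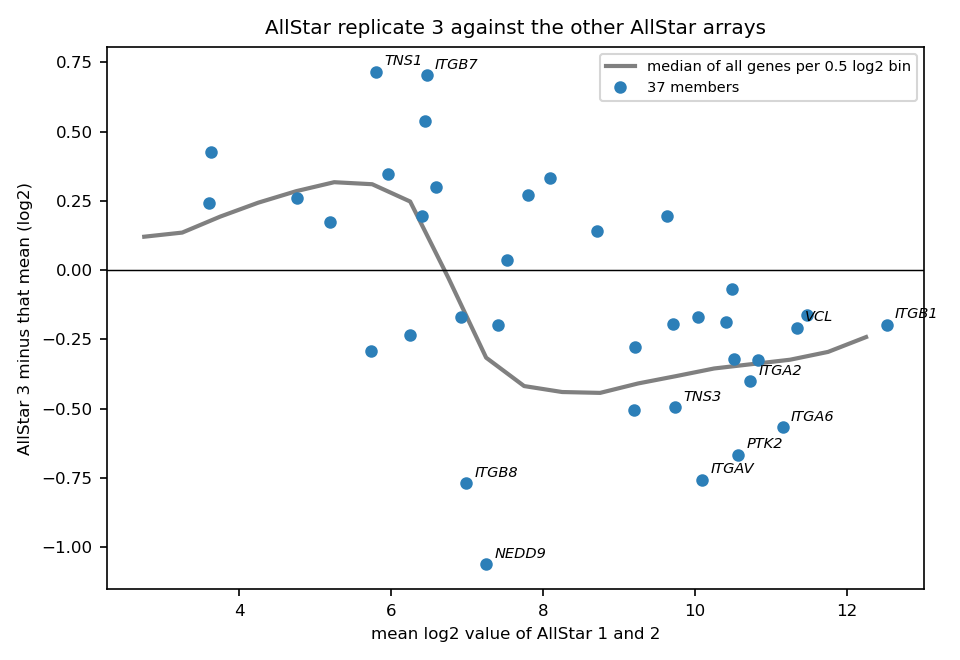
For each of the 37 members, the log2 value on AllStar replicate 3 minus the mean of AllStar replicates 1 and 2 (vertical), against that mean (horizontal), with the median of all genes in bins of 0.5 log2 units as a grey line. NEDD9 is at -1.06 and ITGB8 at -0.77, below the line, and ITGB7 at 0.70 and TNS1 at 0.72, above it.

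Probe sets of a member did not always give the same value. The ITGB8 difference came from its brightest probe set, and the other 4, with mean log2 values of 3.44 to 4.17, differed by -0.05 to 0.13 for both mimics without AllStar replicate 3. The second VCL probe set, near 4.5, differed by -0.25 for Qmimic and -0.14 for Dmimic in that fit. Precision was limited by the number of arrays: over the members, the 95% half-width of a difference from AllStar had a median of 0.24 on the log2 scale with all 9 arrays and 0.18 without AllStar replicate 3.

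**Figure D5:**
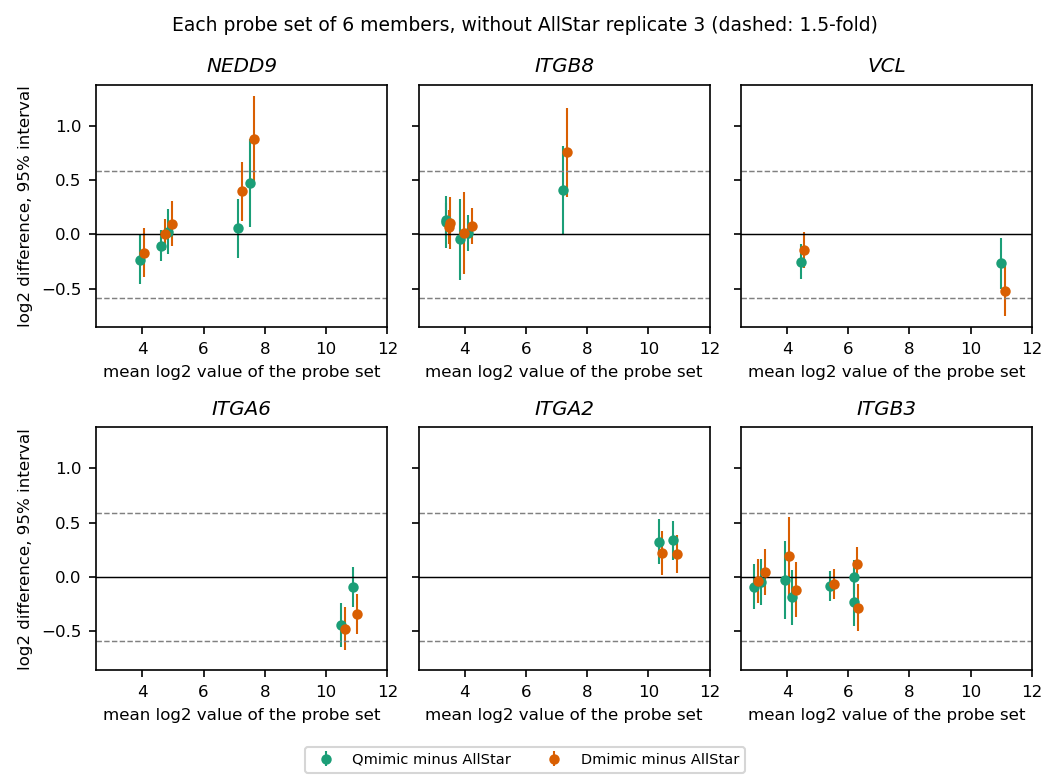
Log2 difference from AllStar, with its 95% interval, for every probe set of 6 members in the fit without AllStar replicate 3, against the mean log2 value of the probe set over the 9 arrays. Points of Qmimic and Dmimic are shifted slightly left and right of that mean, and dashed lines mark 1.5-fold. The 4 dim probe sets of ITGB8 lie between -0.05 and 0.13, while its brightest is at 0.40 for Qmimic and 0.75 for Dmimic.

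Other genes of the pathway gave 1 call. In the fit without AllStar replicate 3, 0 of 7 integrin subunits outside the list, 0 of 44 measured adaptor genes, 1 of 20 measured membrane partners of integrins and 0 of 17 measured matrix ligands were called for either mimic, against 0.693% of all genes for Qmimic and 1.27% for Dmimic. The call was TSPAN8, a tetraspanin that associates with integrins, which rose 1.58-fold with Qmimic (log2 difference 0.66, limma adjusted p = 0.0336). Its log2 values were 7.99, 7.82 and 7.54 with Qmimic, 7.54, 7.47 and 7.76 with Dmimic, and 7.14, 7.09 and 6.24 with AllStar. With all 9 arrays the TSPAN8 difference for Qmimic was 0.96 (limma adjusted p = 0.178), and 0 genes of these lists were called. The TSPAN8 call without AllStar replicate 3 was lost when AllStar replicate 1 or 2 (limma adjusted p = 0.172 and 0.253) or Qmimic replicate 1 or 2 (limma adjusted p = 0.104 and 0.13) was left out as well.

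Some genes of these lists passed the adjusted p but not the fold threshold, and they are named after their values were seen. Of all genes, 2.09% passed the adjusted p alone for Qmimic, 3.32% for Dmimic and 0.288% for Qmimic against Dmimic without AllStar replicate 3. In the fit of 8 arrays, PDLIM5, a PDZ and LIM protein of actin structures, differed by 0.41 for Qmimic and 0.57 for Dmimic (limma adjusted p = 0.046 and 0.0158). The other adaptor genes past the adjusted p were GIT2, an adaptor of the paxillin complex, at 0.32 for Dmimic, and TNS2, a tensin, at -0.33 for Dmimic (limma adjusted p = 0.048 and 0.0418). FBN1, which encodes fibrillin, differed by 0.47 and 0.48 (limma adjusted p = 0.028 and 0.025). THBS1, which encodes thrombospondin, differed by 0.53 for Dmimic (limma adjusted p = 0.0238). CCN2, a matricellular ligand of integrins, differed by 0.46 for Dmimic (limma adjusted p = 0.0141), with log2 values of 12.31, 12.23 and 12.29 with Qmimic, 12.65, 12.60 and 12.68 with Dmimic, and 12.15, 12.21 and 11.94 with AllStar. For CCN2 the Qmimic minus Dmimic difference was -0.36 (limma adjusted p = 0.0436). SDC2, a syndecan, was lower with Qmimic by a log2 difference of -0.40 (limma adjusted p = 0.0234) in the fit of 8 arrays. Its mean log2 value was 8.02 with Qmimic, against 8.42 over AllStar replicates 1 and 2. AllStar replicate 3 read 7.755, below every Qmimic array, and with it the AllStar mean was 8.20.

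Markers of other cells were summed for each array. Given as the log2 of the mean signal, the 8 leukocyte markers ran from 5.19 to 5.32 with Qmimic, 5.29 to 5.33 with Dmimic and 5.21 to 5.64 with AllStar. The 10 fibroblast and endothelial markers ran from 5.70 to 5.87 with Qmimic, 5.83 to 5.87 with Dmimic and 5.76 to 6.07 with AllStar. The 7 luminal markers ran from 9.59 to 9.64 with Qmimic, 9.65 to 9.73 with Dmimic and 8.996 to 9.53 with AllStar. Most of that luminal signal was KRT19, with a mean log2 value of 12.1 against 8.35 for the next brightest, GATA3. The highest AllStar value of the leukocyte and stromal lists and the lowest of the luminal list were those of AllStar replicate 3, while AllStar replicates 1 and 2 were at 5.25 and 5.21, 5.76 and 5.86, and 9.50 and 9.53 in the same lists. Of the stromal markers, KDR, an endothelial receptor, passed the adjusted p for Dmimic without AllStar replicate 3, at 0.46 on the log2 scale (limma adjusted p = 0.0388). Of the markers for MDA-MB-231-type cells, AXL passed it in that fit for Qmimic and Dmimic (limma adjusted p = 0.0394 and 0.0317), but not the fold threshold. AXL was lower with the mimics, at mean log2 values of 11.74 and 11.72, against 12.29 over AllStar replicates 1 and 2. The part of these markers in the results was not tested. In a bulk sample fewer cells and less RNA per cell cannot be told apart.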

How the data were processed

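RNA of 9 wells of MDA-MB-231 cells was measured on HG-U133 Plus 2.0 arrays. The authors deposited RMA-normalised log2 values for each probe set, per the series text and the submitters' processing notes (which name RMA and limma without versions). Arrays give no read depth. The 62 control probe sets were set aside. Of the other 54613, 41091 name 1 gene, 1801 several and 11721 none in the platform annotation given. In limma 3.58.1 under R 4.3.3, 1 model with 3 groups was fitted to all 54613 probe sets, with eBayes and no trend, on all 9 arrays and on 8 without AllStar replicate 3. A gene was called at an adjusted p (Benjamini-Hochberg) under 0.05 and a change of at least 1.5-fold, both from this limma fit. Exact two-sided permutation tests of group means were added for single members, with a smallest p of 0.1 for 3 arrays against 3 or 2. The fit was tested on simulated data of independent normal noise, with the same spread on every array. No array was set apart there, so that test says nothing about AllStar replicate 3.

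The members, the 4 companion lists of 98 symbols (older names included) and the marker lists were chosen with earlier results of these data known. Members described at length were those called in any comparison, the 5 with the smallest adjusted p in each, and ITGB1, ITGAV, ITGB3, ITGA5, PTK2, SRC and ILK; ITGB4 and TNS3 were described at length after their values were seen. The replicate numbers of the labels were checked and did not pair the arrays. Alternatives were the replicate number as a block, each array left out, a log2 change of at least 1.5, adjusted p alone, the brighter probe sets only, 3 other scalings, only the groups compared, a trend in eBayes, and any probe set of a member. Upstream windows and the microRNA came from RefSeq tables of GRCh38.p14, in which 27 of the 38 members had windows.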

Additional observations from a re-analysis of the deposited data

How the results depend on the processing

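No direction of a called value turned under any alternative. For Dmimic against AllStar with all 9 arrays, 0 members were called, and leaving out 1 array gave 0 to 1, the 1 being NEDD9 without AllStar replicate 3. Cyclic loess gave 1, VCL at a log2 difference of -0.60 (limma adjusted p = 0.0478). Without AllStar replicate 3, where 1 member was called for Dmimic, leaving out a further array gave 0 to 2. A log2 change of at least 1.5 gave 0, only the groups compared 0, adjusted p alone 2 (NEDD9 and VCL), and the brighter probe sets and the trend in eBayes 2 each (NEDD9 and ITGB8). For both mimics together without that array, where 0 were called, leaving out a further array gave 0 to 1 (NEDD9, without Dmimic replicate 2), and the brighter probe sets, centring on the median and the trend in eBayes gave 1 each, again NEDD9. Qmimic against AllStar and Qmimic against Dmimic gave 0 members under every alternative run, in both fits. Over the 17 alternatives of the fit without AllStar replicate 3, the NEDD9 difference for Dmimic ran from 0.65 to 1.06 on the log2 scale and its limma adjusted p from 0.0105 to 0.238. Of 2898 single-gene values under alternatives, 79 had a turned sign, none of them called. Only the groups compared was not run for both mimics together, which uses all groups.

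With the replicate number as a block, 0 members were called for Dmimic without AllStar replicate 3 (NEDD9 0.78, limma adjusted p = 0.116), and 0 in the other comparisons. The numbers did not pair the arrays: the residuals of same-number arrays correlated at -0.28 to 0.22, above 0.1 in 3 of 9 pairs, and 3 of the 9 arrays correlated best with their own number.

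Wells are called biological replicates but no culture or day is given, so p-values measure the spread between these wells. With 1 AllStar array left, that array is assumed to vary like the other groups. Dim probe sets limit what can be said of ITGA4, ITGA9, ITGA11 and LIMS1, and ITGB6 was not analysed here.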
